A study of Mus musculus with 36 samples.

Results

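The C/EBP family of transcription factors comprises 6 members, Cebpa, Cebpb, Cebpd, Cebpe, Cebpg and Ddit3, which were followed through B cell to macrophage transdifferentiation (BMT). The members were taken by gene symbol from tables of 40354 genes, whatever their values, and 5 of the 6 passed the filter on low counts. The exception was Cebpe.

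RNA was sequenced from mouse C57BL/6J bone marrow B cells that carried a retroviral C/EBPα-ER construct with a human CD4 tag. Cells positive for the tag were enriched, grown on inactivated embryonic fibroblast feeders in medium with IL-7, IL-3, FLT-3, CSF-1 and SCF, and given E2 (17β-estradiol), which moves the fusion protein into the nucleus. All cells thus carried a construct, also at 0 hours post-induction (hpi), and differed in whether its C/EBPα was wild-type (WT) or had arginine 35 replaced by alanine (R35A) or lysine (R35K). Each construct was sampled at 0 hpi and at 5 later times, 1, 3, 6, 18 and 120 hpi, with 2 libraries per group and 36 in all, and the cells are labelled B cells up to 18 hpi and macrophages at 120 hpi. The cells are an infected population, in which the construct comes from a retrovirus. R35K libraries were deposited in tables of their own, so the R35K construct and its table cannot be told apart.

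Total counts per library were 13044456 to 23131776, with a median of 15471229.5. The 6 B cell markers, all detected in every library, summed to 2768 to 3038 CPM (counts scaled to library size) at 0 hpi and 62.6 to 138 at 120 hpi, and the 6 macrophage markers, also detected in every library, rose from at most 64.5 to at least 19110 CPM. The 7 fibroblast markers, none of them at 0 in any library, summed to 1088 to 1182 CPM at 0 hpi, 1574 to 2816 from 1 to 18 hpi and 124 to 452 at 120 hpi. The 7 granulocyte markers stayed at or below 48.4 CPM in sum, and Ly6g reached at most 2 counts.

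C/EBP proteins bind DNA as dimers through a basic leucine zipper at the C-terminus, and pair with one another and with related zipper proteins. C/EBPα drives myeloid commitment in bone marrow, C/EBPβ and C/EBPδ are induced by cytokines and act in macrophages and inflammation, and C/EBPε acts late in granulocyte maturation. C/EBPγ and CHOP, the product of Ddit3, lack the strong activation domains of the others and pair with them. CHOP is induced through ATF4 when protein folding or amino acid supply fails.

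The promoters of Cebpb and Cebpa are shown because Cebpb showed the largest change of the family and Cebpa is also the gene on the construct. They are the 250 bases before each gene's start in RefSeq (GRCm38.p6, plus strand), at chr2:167688665-167688914 and chr7:35119043-35119292. Capitals mark TGACG, the core of a cAMP response element, or its reverse complement CGTCA.
Cebpb: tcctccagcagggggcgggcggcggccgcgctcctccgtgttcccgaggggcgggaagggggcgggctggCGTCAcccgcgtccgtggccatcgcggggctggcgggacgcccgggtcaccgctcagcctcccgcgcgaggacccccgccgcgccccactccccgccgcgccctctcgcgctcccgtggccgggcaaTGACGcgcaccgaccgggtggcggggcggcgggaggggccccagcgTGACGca
Cebpa: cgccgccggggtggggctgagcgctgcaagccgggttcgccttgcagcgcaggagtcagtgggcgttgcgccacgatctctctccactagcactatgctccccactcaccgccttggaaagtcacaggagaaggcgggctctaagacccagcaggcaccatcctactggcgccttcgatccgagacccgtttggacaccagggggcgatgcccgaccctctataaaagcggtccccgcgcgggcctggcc

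TGACG, searched on both strands, was found 3 times in the Cebpb window, 180, 53 and 7 bases before the start, and was not found in that of Cebpa. Of 32851 RefSeq windows of this length, 17.8% held it. Neither window held the C/EBP consensus TTNNGNAA, which was in 36.8% of windows, or the C/EBP-ATF composite TGATGNAA, which was in 3.45%. The ETS core GGAA, present in 93.4% of windows, occurred once in the Cebpa window and 2 times in the Cebpb window. The GC content was 81.6% for Cebpb and 66.4% for Cebpa, against a median of 52.4% over all windows. These matches describe the sequence only.

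At 0 hpi, the level of Cebpa was 43.0 and 38.5 CPM in the WT libraries, 39.7 and 34.9 in R35A and 39.0 and 37.0 in R35K. No member was called between R35A and WT at 0 hpi, where 0% of the 16988 genes tested were called. By unadjusted p of at most 0.05 together with the 1.5-fold threshold, 261 genes passed. A gene was called when it changed at least 1.5-fold with an adjusted p of at most 0.05 in edgeR's quasi-likelihood test, and all changes below are log2 fold changes from 0 hpi of the same construct with their SE.

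**Figure D1:**
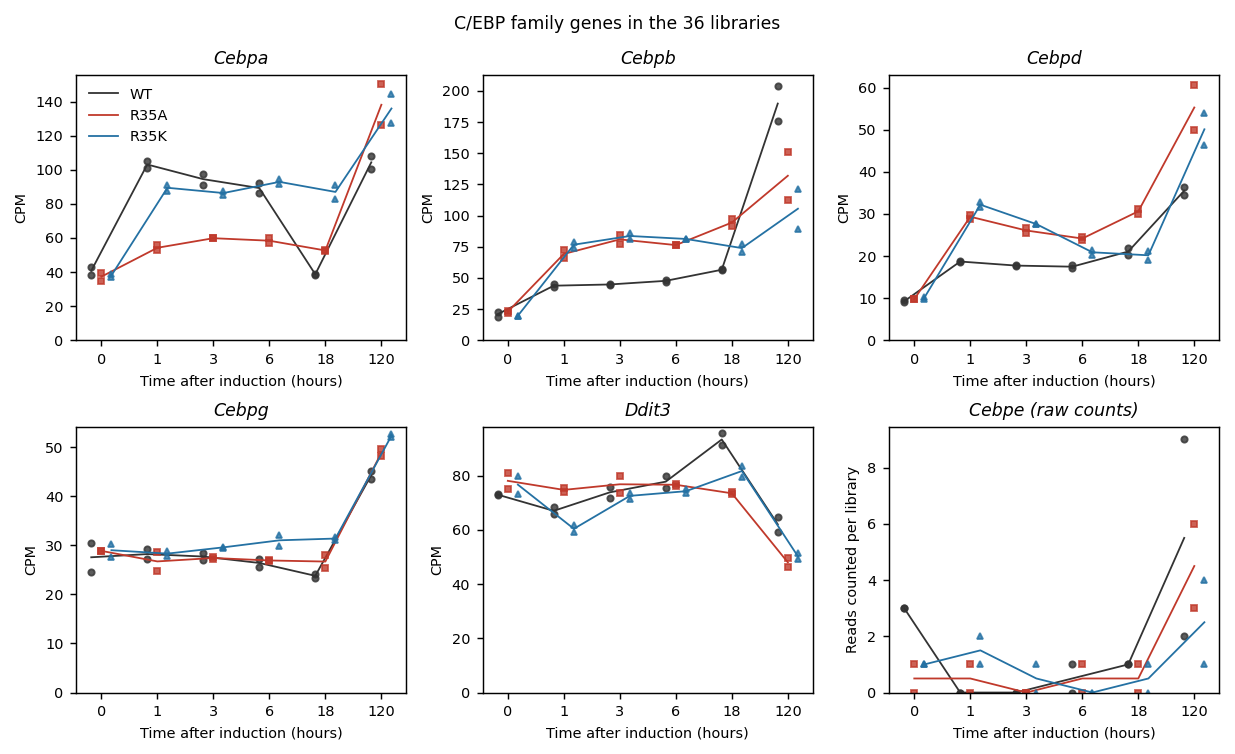
Level of each C/EBP family gene in CPM (y axis; raw counts for Cebpe) against hours post-induction (x axis, evenly spaced). Points are single libraries and lines join the means of 2 libraries. Cebpb and Cebpd lay above their 0 hpi level at all later times. Cebpg moved mainly at 120 hpi, Ddit3 was lowest at 120 hpi with each construct, and Cebpe stayed at 9 counts or fewer.

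Cebpb, on chromosome 2 (167688915 to 167690418, mm10, plus strand), encodes C/EBPβ and rose within 1 hour of induction with all 3 constructs. Its level with WT was 18.9 and 23.0 CPM at 0 hpi, 44.7 and 42.7 at 1 hpi, 44.8 and 44.6 at 3 hpi, 47.0 and 48.3 at 6 hpi, 57.0 and 56.1 at 18 hpi and 204 and 176 at 120 hpi. WT thus rose in an early step, held a plateau and rose again after 18 hpi.

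With R35A, the level of Cebpb was 22.0 and 23.6 CPM at 0 hpi, 66.0 and 72.4 at 1 hpi, 84.5 and 77.3 at 3 hpi, 76.2 and 76.5 at 6 hpi, 97.5 and 91.3 at 18 hpi and 151 and 113 at 120 hpi. The R35K libraries had 19.8 and 19.6 at 0 hpi, 74.3 and 78.9 at 1 hpi, 81.2 and 86.0 at 3 hpi, 80.9 and 81.5 at 6 hpi, 70.8 and 77.0 at 18 hpi and 121 and 89.5 at 120 hpi. From 1 to 18 hpi both mutants lay above every WT library of the same time, and at 120 hpi both lay below.

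The change of Cebpb at 1 hpi was 1.09 ± 0.16 with WT (adjusted p = 6e-05), 1.57 ± 0.14 with R35A (adjusted p = 2.31e-07) and 1.91 ± 0.16 with R35K (adjusted p = 2.8e-05). By 120 hpi it had reached 3.06 ± 0.14 with WT, 2.40 ± 0.13 with R35A and 2.32 ± 0.16 with R35K, which is 8.32-fold with WT and 5.27-fold with R35A. From 18 to 120 hpi Cebpb rose by 1.62 ± 0.11 with WT, whereas the steps of 0.38 ± 0.11 with R35A and 0.46 ± 0.13 with R35K stayed under 1.5-fold.

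The difference of these changes between constructs was tested as an interaction. Relative to WT, Cebpb rose more with R35K at 1 hpi (0.90 ± 0.24, adjusted p = 0.00739), 3 hpi (0.99 ± 0.24, adjusted p = 0.00353) and 6 hpi (0.86 ± 0.24, adjusted p = 0.00949), and less at 120 hpi (-0.76 ± 0.23, adjusted p = 0.0194). With R35A it rose more at 3 hpi (0.70 ± 0.22, adjusted p = 0.0279) and less at 120 hpi (-0.66 ± 0.21, adjusted p = 0.0259). The differences with R35A at 1, 6 and 18 hpi were 0.49, 0.55 and 0.59, with adjusted p of 0.114, 0.0892 and 0.071, and were not called. In the direct comparison of levels at the same time, which does not subtract 0 hpi, Cebpb was higher with R35A than with WT by 0.62 ± 0.12 at 1 hpi (adjusted p = 0.000938), 0.83 ± 0.12 at 3 hpi, 0.68 ± 0.12 at 6 hpi and 0.72 ± 0.12 at 18 hpi, all called. At 120 hpi the value was -0.52 ± 0.10, under 1.5-fold.

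The R35A differences at 3 and 120 hpi depended on single libraries. At 3 hpi the adjusted p passed 0.05 in 7 of the refits that leave out 1 library, up to 0.165 without WT replicate 2 of 0 hpi. At 120 hpi the difference was -0.46 without R35A replicate 2 of that time, the lower of the R35A libraries, and the adjusted p was 0.143 without WT replicate 1 of 0 hpi. For R35K, leaving out WT replicate 2 of 0 hpi raised the adjusted p to 0.0699 at 1 hpi and 0.0824 at 6 hpi, and the 120 hpi difference was not called in 5 such refits, with an adjusted p of at most 0.118.

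Cebpb shares 908 of its 1504 exonic bases with Tmem189, a gene on the opposite strand that was singled out after its values were seen. The strand setting of the counting is not given in the sources used here, so reads of the pair could not be told apart. The level of Tmem189 was 34.0 to 38.9 CPM at 0 hpi over the 3 constructs and 216 to 330 CPM at 120 hpi. Its change at 1 hpi was 0.80 ± 0.06 with WT, 1.63 ± 0.05 with R35A and 1.85 ± 0.05 with R35K, and its change at 120 hpi was 3.06, 2.57 and 2.51. These changes ran in the same order over the constructs as those of Cebpb.

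Cebpd, on chromosome 16 (15887286 to 15891031, plus strand), encodes C/EBPδ and also rose within 1 hour with all 3 constructs, but at 120 hpi it was lowest with WT, where Cebpb was highest. Its level with WT was 9.46 and 9.05 CPM at 0 hpi, 18.8 and 18.6 at 1 hpi, 17.9 and 17.6 at 3 hpi, 17.1 and 17.8 at 6 hpi, 22.0 and 20.1 at 18 hpi and 34.6 and 36.5 at 120 hpi. With R35A it was 9.80 and 9.74 at 0 hpi, 29.8 and 28.9 at 1 hpi, 25.5 and 26.6 at 3 hpi, 24.5 and 23.9 at 6 hpi, 31.2 and 30.1 at 18 hpi and 60.6 and 50.1 at 120 hpi. The R35K libraries had 10.4 and 9.84 at 0 hpi, 31.7 and 32.8 at 1 hpi, 27.7 and 27.5 at 3 hpi, 20.3 and 21.5 at 6 hpi, 19.1 and 21.2 at 18 hpi and 54.0 and 46.3 at 120 hpi. R35A libraries lay above WT at all times after induction, whereas at 18 hpi the R35K libraries no longer lay above WT, and they rose again by 120 hpi.

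The change of Cebpd was called at all 5 times with all 3 constructs. At 1 hpi it was 1.04 ± 0.10 with WT, 1.56 ± 0.09 with R35A and 1.62 ± 0.09 with R35K, and at 120 hpi 1.81 ± 0.10, 2.37 ± 0.09 and 2.21 ± 0.09, or 3.51-fold, 5.18-fold and 4.61-fold. From 18 to 120 hpi Cebpd rose by 0.63 ± 0.08 with WT, 0.75 ± 0.07 with R35A and 1.26 ± 0.08 with R35K. The WT rise was 0.57, under 1.5-fold, with no low-count filter.

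Relative to WT, Cebpd rose more with R35K at 1 hpi (0.66 ± 0.14, adjusted p = 0.000122). This value fell to 0.58, just under 1.5-fold, in 5 refits that left out a library of 6 or 120 hpi. At 3, 6, 18 and 120 hpi the R35K differences were 0.51, 0.13, -0.19 and 0.37 and were not called. The R35A differences were 0.53, 0.45, 0.39, 0.45 and 0.56 from 1 to 120 hpi, with adjusted p between 0.000621 and 0.0352, and stayed under 1.5-fold at each time. Compared directly at the same time, Cebpd was higher with R35A than with WT by 0.61 ± 0.08 at 1 hpi and 0.64 ± 0.07 at 120 hpi, and the latter was 0.50 without R35A replicate 1.

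The feeder cells bear on both genes, since fibroblasts also express C/EBPβ and C/EBPδ. The summed fibroblast markers went from at most 1182 CPM at 0 hpi to 2233 and 2247 with WT at 1 hpi, 2494 and 2504 with R35A, and 2034 and 2100 with R35K, alongside the early rise of Cebpb and Cebpd. At 1 hpi the markers, Cebpb and Cebpd were all higher with R35A than with WT. With R35K at 1 hpi the markers were lower than with WT and both genes were higher. From 3 to 6 hpi with R35K, the markers went from 2009 and 2066 CPM to 1651 and 1676. The mean of Cebpd went from 27.6 to 20.9 CPM over that step. At 6 hpi the markers were lower with R35K than with WT (2661 and 2761 CPM), and Cebpb was higher with R35K. At 120 hpi the markers lay at or below 452 CPM, under their 0 hpi level, while Cebpb and Cebpd were at their highest. The part of the feeder cells in these levels was not tested.

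Spidr shares 1808 bases with Cebpd on the opposite strand. The level of Spidr was 15.98 to 25.4 CPM up to 18 hpi and 45.8 to 60.97 at 120 hpi. Its changes from 1 to 18 hpi lay between -0.51 and -0.05 with the 3 constructs and were not called, and at 120 hpi it rose by 1.18 with WT, 0.88 with R35A and 0.93 with R35K.

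**Figure D2:**
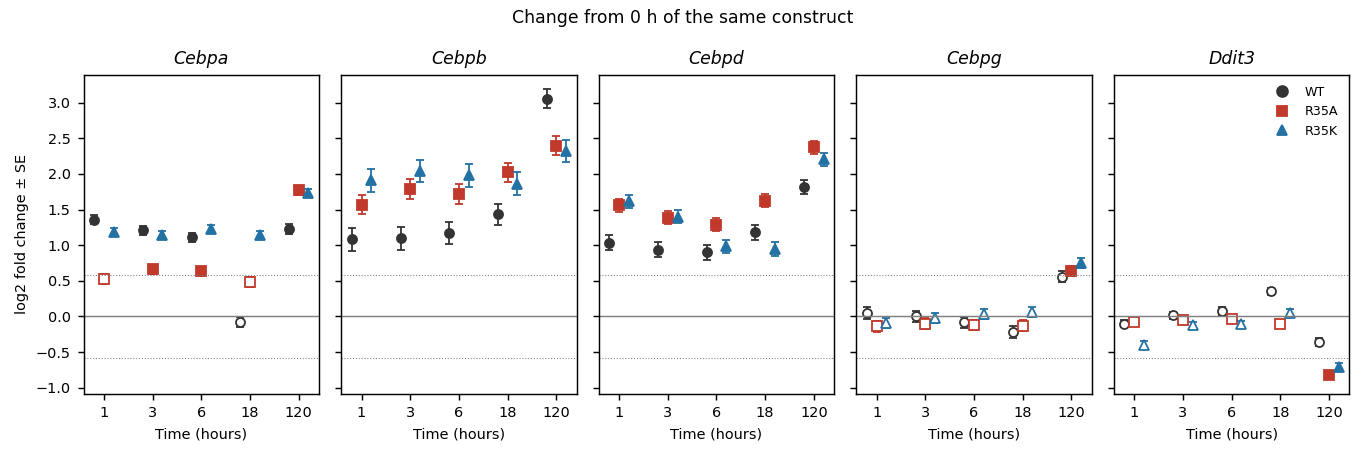
Change from 0 hpi of the same construct (y axis, log2 fold change with SE) against hours post-induction (x axis) for the 5 members that passed the low-count filter. Filled symbols were called, open symbols were not, and dotted lines mark 1.5-fold. Cebpb and Cebpd are filled throughout, and Cebpa with WT is at -0.08 at 18 hpi (0.04 under the DESeq2 size factors). Cebpg and Ddit3 are filled only at 120 hpi with R35A and R35K.

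Cebpa, on chromosome 7 (35119293 to 35121928, plus strand), encodes C/EBPα, and its row may hold reads of the construct as well as of the endogenous gene. With WT its level was 43.0 and 38.5 CPM at 0 hpi, 105 and 101 at 1 hpi, 97.7 and 91.4 at 3 hpi, 92.2 and 86.4 at 6 hpi, 38.9 and 38.5 at 18 hpi and 108 and 101 at 120 hpi. The level thus rose at 1 hpi, was back near the 0 hpi level at 18 hpi and rose again at 120 hpi.

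With R35A, the level of Cebpa was 39.7 and 34.9 CPM at 0 hpi, 52.9 and 55.6 at 1 hpi, 60.0 and 59.8 at 3 hpi, 59.8 and 57.0 at 6 hpi, 53.0 and 52.4 at 18 hpi and 150.1 and 126 at 120 hpi. With R35K it was 39.0 and 37.0 at 0 hpi, 91.1 and 87.8 at 1 hpi, 85.4 and 87.4 at 3 hpi, 91.4 and 94.4 at 6 hpi, 83.0 and 91.0 at 18 hpi and 144 and 128 at 120 hpi. Neither mutant showed the drop at 18 hpi seen with WT.

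The change of Cebpa at 1 hpi was 1.36 ± 0.06 with WT and 1.18 ± 0.06 with R35K, and 0.52 ± 0.07 with R35A, which was under 1.5-fold. The step from 6 to 18 hpi was -1.19 ± 0.06 with WT (adjusted p = 5.95e-23), -0.15 ± 0.06 with R35A and -0.08 ± 0.05 with R35K. Of the 5 members tested, only Cebpa with WT was called in this step, in which 13.5% of all genes were called with WT, 4.33% with R35A and 5.48% with R35K. The R35A changes of Cebpa at 3 and 6 hpi, 0.66 and 0.63, were under 1.5-fold without R35A replicate 2 of 0 hpi (0.56 and 0.54). At 120 hpi the change was 1.23 ± 0.07 with WT, 1.77 ± 0.06 with R35A and 1.74 ± 0.06 with R35K.

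Relative to WT, the change of Cebpa was smaller with R35A at 1 hpi (-0.83 ± 0.09, adjusted p = 7.57e-11), and larger with R35K at 18 hpi (1.27 ± 0.11, adjusted p = 1.04e-11). The other R35A differences were -0.55, -0.48, 0.57 and 0.54 at 3, 6, 18 and 120 hpi, with adjusted p of at most 4.1e-05, and stayed under 1.5-fold. Compared directly, Cebpa was lower with R35A than with WT at 1, 3 and 6 hpi (-0.97, -0.68 and -0.61), and the 6 hpi value was -0.57 without WT replicate 1 or R35A replicate 2 of that time. The other R35K differences in change from 0 hpi were between -0.10 and 0.16 up to 6 hpi and 0.48 at 120 hpi, and were not called.

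Esr1, the estrogen receptor gene whose product is fused to C/EBPα in the construct, gave a measure beside Cebpa that may also hold construct reads. With WT, the level of Esr1 was 59.8 and 61.6 CPM at 0 hpi, 143 and 147 at 1 hpi, 136 and 143 at 3 hpi, 121 and 126 at 6 hpi, 27.4 and 27.0 at 18 hpi and 122 and 131 at 120 hpi. With R35A it was 55.0 and 53.6 at 0 hpi, 46.0 and 46.0 at 1 hpi, 48.6 and 50.3 at 3 hpi, 44.7 and 43.4 at 6 hpi, 25.5 and 26.8 at 18 hpi and 144 and 159.8 at 120 hpi. With R35K it was 59.5 and 63.6 at 0 hpi, 74.4 and 75.6 at 1 hpi, 73.4 and 68.2 at 3 hpi, 78.2 and 72.6 at 6 hpi, 36.6 and 33.7 at 18 hpi and 183 and 173 at 120 hpi. Esr1 was lowest at 18 hpi with all 3 constructs, and from 1 to 6 hpi it was highest with WT.

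The change of Esr1 at 1 hpi was 1.28 with WT and -0.26 with R35A, a difference of -1.54 ± 0.07 (adjusted p = 4.3e-35). The ratio of Cebpa to Esr1 counts was 0.625 to 0.722 over the WT and R35A libraries at 0 hpi and 0.582 and 0.656 with R35K. With WT it was 0.639 to 0.761 from 1 to 6 hpi, 1.42 and 1.43 at 18 hpi and 0.77 and 0.89 at 120 hpi. With R35A it was 1.15 to 1.34 from 1 to 6 hpi, 1.95 and 2.08 at 18 hpi and 0.79 and 1.04 at 120 hpi. The R35K ratio was 1.16 to 1.30 from 1 to 6 hpi, 2.27 and 2.70 at 18 hpi and 0.737 and 0.787 at 120 hpi.

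Within 1 hour the ratio to Esr1 was therefore higher with both mutants than in any WT library of 1 to 6 hpi, and it was highest at 18 hpi with all 3 constructs. Cd4, whose row may hold reads of the CD4 tag, had 18 to 115 counts per library. At 1 hpi the ratio of Cebpa to Cd4 counts overlapped between constructs. It was 19.7 and 16.1 with WT, 23.7 and 19.4 with R35A, and 19.04 and 16.85 with R35K. At 3 hpi it was 15.6 in both WT libraries and 18.3 to 19.4 with the mutants. At 6 hpi R35K (25.0 and 21.02) overlapped WT (21.03 and 18.3), and R35A lay above (30.7 and 26.1). Reads of the endogenous and the construct-borne Cebpa could not be split in these tables. Gm45091, which overlaps 313 bases of Cebpa on the opposite strand, stayed at or below 0.248 CPM.

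**Figure D3:**
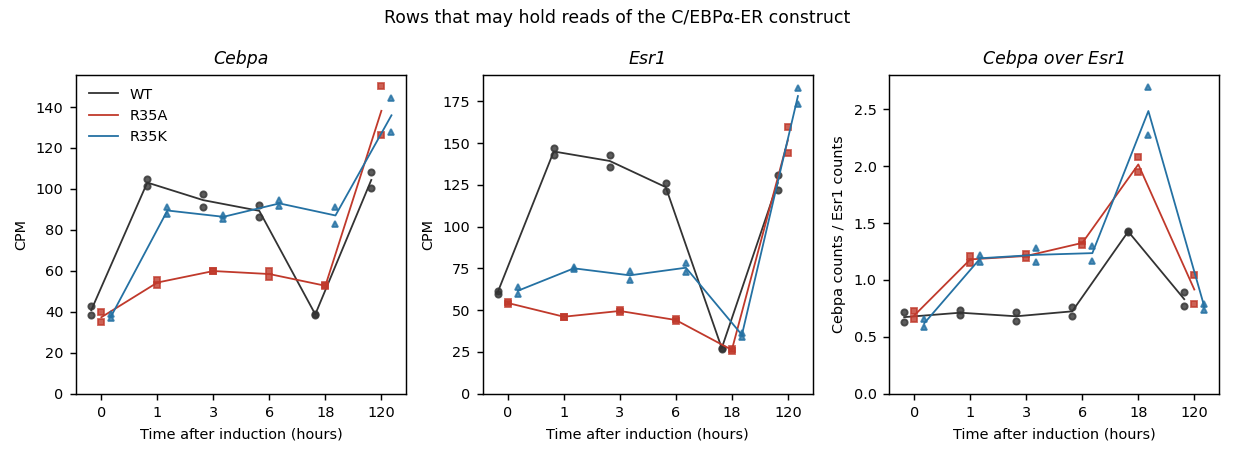
Level of Cebpa and of Esr1 in CPM (y axis, left and middle panels) and the ratio of their counts (right panel) against hours post-induction. Points are single libraries and lines join means of 2 libraries. With WT both genes are high from 1 to 6 hpi and low at 18 hpi, and the ratio peaks at 18 hpi with each construct.

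Cebpg, on chromosome 7 (35046422 to 35056573, minus strand), encodes C/EBPγ and changed late. Its level with WT was 30.5 and 24.6 CPM at 0 hpi, 29.2 and 27.2 at 1 hpi, 28.4 and 27.0 at 3 hpi, 27.2 and 25.6 at 6 hpi, 23.3 and 24.2 at 18 hpi and 45.1 and 43.5 at 120 hpi. With R35A it was 28.8 and 28.9 at 0 hpi, 24.8 to 28.6 from 1 to 18 hpi and 48.1 and 49.5 at 120 hpi. With R35K it was 30.3 and 27.7 at 0 hpi, 27.8 to 32.2 from 1 to 18 hpi and 51.9 and 52.6 at 120 hpi. All 120 hpi libraries lay above all earlier ones.

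The step of Cebpg from 18 to 120 hpi was 0.77 ± 0.08 with WT, 0.76 ± 0.07 with R35A and 0.68 ± 0.07 with R35K, and was called with each. From 0 to 120 hpi the change was 0.64 ± 0.07 with R35A and 0.75 ± 0.07 with R35K, and 0.56 ± 0.08 with WT, which was just under 1.5-fold. With DESeq2's size factors the WT change was 0.71, and with all 36 libraries in 1 fit it was 0.68, past the threshold in both. No difference between constructs was called for Cebpg at any time.

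Ddit3, on chromosome 10 (127290774 to 127296288, plus strand), encodes CHOP and was the member that fell. Its level with WT was 72.8 and 73.1 CPM at 0 hpi, 68.3 and 65.7 at 1 hpi, 71.7 and 75.9 at 3 hpi, 75.5 and 80.0 at 6 hpi, 91.1 and 95.5 at 18 hpi and 64.8 and 59.3 at 120 hpi. With R35A it was 81.0 and 75.1 at 0 hpi, 73.0 to 79.8 from 1 to 18 hpi and 49.6 and 46.4 at 120 hpi. With R35K it was 73.3 and 80.0 at 0 hpi, 59.1 and 61.7 at 1 hpi, 71.3 to 83.7 from 3 to 18 hpi and 51.3 and 49.1 at 120 hpi. The WT libraries of 18 hpi held the highest levels of the series, and in each construct the 120 hpi libraries lay below those of 18 hpi.

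From 18 to 120 hpi Ddit3 fell by 0.71 ± 0.05 with WT, 0.72 ± 0.06 with R35A and 0.76 ± 0.06 with R35K. The WT fall was under 1.5-fold without WT replicate 2 of 18 hpi (-0.55) or of 120 hpi (-0.52), and the R35A fall without R35A replicate 2 of 120 hpi (-0.57). From 0 to 120 hpi it fell by 0.82 ± 0.06 with R35A and by 0.71 ± 0.06 with R35K (by 0.57, under 1.5-fold, with DESeq2's size factors), and the WT value of -0.36 ± 0.06 was not called. With WT the change at 18 hpi was 0.35 ± 0.05, and with R35K that at 1 hpi was -0.39 ± 0.05, both under 1.5-fold. The differences from WT at 18 and 120 hpi were -0.46 and -0.46 with R35A, and -0.26 and -0.38 with R35K, with adjusted p of at most 0.00155, and were not called either.

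At 120 hpi the median change of all genes tested was itself below 0, at -0.36 with WT, -0.31 with R35A and -0.28 with R35K. The WT change of Ddit3 at 120 hpi thus equalled that median to 2 decimals, and the rises of Cebpa, Cebpb, Cebpd and Cebpg lay further above it than above 0.

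Cebpe, on chromosome 14 (54710360 to 54712174, minus strand), encodes C/EBPε and was near the floor. It had 45 counts in all over the 36 libraries, was at 0 in 15 and at 3 or fewer in 33, and reached its maximum of 9 in a WT library of 120 hpi. At 0 hpi it had 3 counts in both WT libraries, at most 1 with R35A and 1 in each R35K library. At 120 hpi it had 2 and 9 counts with WT, 3 and 6 with R35A, and 1 and 4 with R35K. Summed over the 2 libraries of a group, this was 11 with WT, 9 with R35A and 5 with R35K, against at most 6 in any earlier group. Cebpe did not pass the low-count filter and was left out of the main tests. A count of 0 allows up to 3, so small differences of Cebpe between groups could not be told at this depth.

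**Figure D4:**
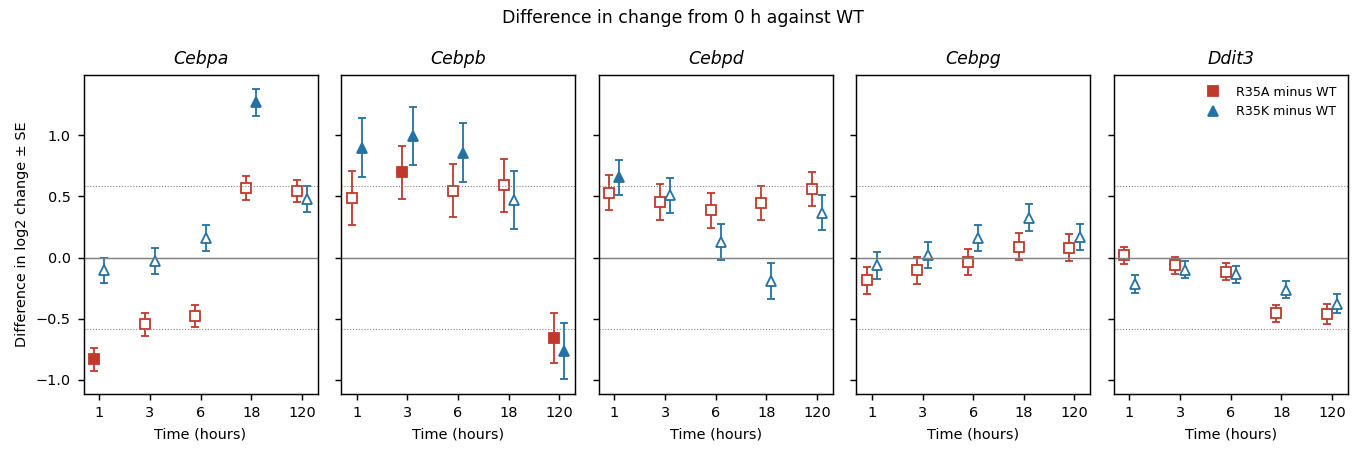
Difference in the change from 0 hpi, R35A minus WT and R35K minus WT (y axis, log2 with SE), against hours post-induction (x axis). Filled symbols were called and dotted lines mark 1.5-fold. Cebpb is above 0 up to 18 hpi and below 0 at 120 hpi with both mutants, and Cebpa with R35A goes from -0.83 at 1 hpi to 0.54 at 120 hpi.

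Counted over the 5 members tested, all calls before 120 hpi were rises, and 3 were called with WT at 1, 3 and 6 hpi, 2 at 18 hpi and 3 at 120 hpi, where 20%, 23.5%, 29.8%, 47.1% and 63.4% of all genes were called in either direction. With R35A the counts were 2, 3, 3 and 2 up to 18 hpi, and at 120 hpi 4 rose and Ddit3 fell, against 37.3%, 36.9%, 37.7%, 42.6% and 63.2% of all genes. With R35K they were 3 at each time up to 18 hpi, and at 120 hpi again 4 rose and Ddit3 fell, against 32.9%, 32.7%, 34.1%, 39% and 63.9%. In the step from 18 to 120 hpi, 5 members were called with WT and 4 with each mutant, where 60.5%, 54% and 53.2% of all genes were called with WT, R35A and R35K.

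In the differences between R35A and WT, 1 member was called at 1, 3 and 120 hpi and 0 at 6 and 18 hpi, against 14.1%, 13%, 10.3%, 8.49% and 14.6% of all genes from 1 to 120 hpi. By unadjusted p these counts were 0 at 6 hpi and 1 at 18 hpi, and by DESeq2 0 at both. In those between R35K and WT, 2 were called at 1 hpi and 1 at each later time, against 12%, 10%, 12.3%, 13.3% and 10.3%. In the direct comparison of R35A with WT, 3, 2, 2, 1 and 1 members were called from 1 to 120 hpi, against 19.4%, 17.1%, 13.8%, 10.1% and 18.8% of all genes. With so few members these shares describe the family and do not set it apart from other genes.

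The make-up of the family was compared per length, as CPM per kb of annotated exon. The symbol Ddit3 has 2 gene entries in the annotation, and their exons were merged for its length. Which of these entries its counts cover is not given in the sources used here. At 0 hpi, Ddit3 held 53.6% of the family's summed level per kb with WT, 55.1% with R35A and 55.8% with R35K. Cebpa and Cebpb followed, with 19.4% and 17.5% in WT, and their per-length levels overlapped between libraries in WT and R35A. Cebpg held 6.2% to 6.4%, Cebpd 3.1% to 3.4% and Cebpe 0.2% or less.

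At 18 hpi Ddit3 still led with WT at 46.7%, ahead of Cebpb at 32.2%, whereas Cebpb led with R35A at 45.3%, ahead of Ddit3 at 30.9%. With R35K, Cebpb and Ddit3 held 34.9% and 33.9% at 18 hpi, and their libraries overlapped. By 120 hpi Cebpb led throughout, with 57.4% in WT, 45.7% in R35A and 40.3% in R35K, followed by Cebpa with 18.0%, 27.3% and 29.7% and Ddit3 with 16.5%, 14.6% and 16.9%. The share of Cebpa includes any construct reads.

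**Figure D5:**
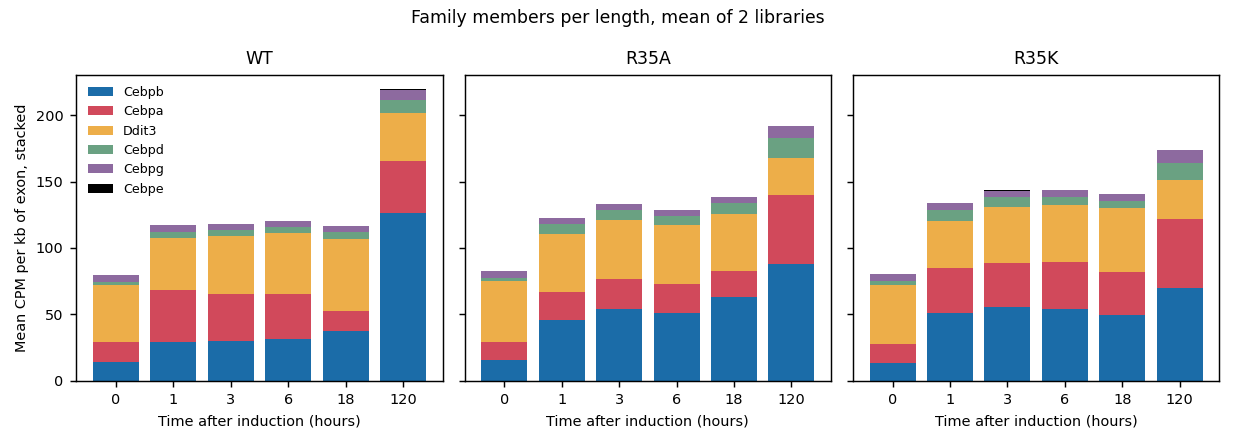
Mean level per kb of exon of the 6 members (y axis, CPM per kb, stacked, mean of 2 libraries) against hours post-induction (x axis) for each construct. Ddit3 takes the largest part at 0 hpi, 53.6% to 55.8%, and Cebpb at 120 hpi, 40.3% to 57.4%.

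Other genes with a similar course were sought among 11155 genes by the Pearson correlation of mean log2 CPM over the 12 WT and R35A groups, given as a description since the groups share a time course and constructs. Cebpb was most like Cd300a (r = 0.996), Lgals3 (0.993) and Ggh (0.993), which had r of 0.992, 0.983 and 0.975 over the 6 R35K groups. Cebpd was most like Cd302 (0.992), Il4ra (0.991) and Pld3 (0.986). Cebpg was most like Xaf1 (0.995), Fam96a (0.993) and Zdhhc7 (0.992), and Ddit3 like Dvl2 (0.990), Slc4a11 (0.968) and 5430430B14Rik (0.966).

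Cebpa had no such close match, the nearest being Ptgir (0.933), Swt1 (0.926) and Atl3 (0.917), of which the last pair dropped to 0.636 and 0.541 over the R35K groups. With Esr1 its r was 0.846 over the WT and R35A groups and 0.458 over the R35K groups. Within the family, Cebpb and Cebpd had r = 0.935 (0.864 over the R35K groups), Cebpg and Ddit3 r = -0.946 (-0.751), and Cebpa and Cebpb 0.496 (0.969).

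Among 12 tested genes of zipper proteins that pair with or resemble C/EBP factors, 3 rose with WT, 4 with R35A and 4 with R35K at 1 hpi, and 7, 7 and 6 rose at 18 hpi, with none falling at these times. The shares at 1 hpi were close to the 20%, 37.3% and 32.9% of all genes called. Of all genes, 47.1%, 42.6% and 39% were called at 18 hpi and 63.4%, 63.2% and 63.9% at 120 hpi. At 120 hpi 6, 5 and 6 rose and 2, 3 and 3 fell, with medians of 0.34, 0.29 and 0.32 against -0.36, -0.31 and -0.28 over all genes. Atf3, a stress-induced repressor and activator, rose by 0.68 with R35A and 1.2 with R35K at 1 hpi, had a value of 0.19 with WT there, and rose by 3.83, 3.26 and 3.61 with WT, R35A and R35K at 120 hpi.

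Among 8 tested genes listed as regulators of C/EBP proteins, Trib1, whose product directs C/EBPα to degradation, was the 1 that rose at 1 hpi. It rose by 0.59 with WT, 0.71 with R35A and 0.82 with R35K there, and by 3.31, 2.91 and 3.16 at 120 hpi. At 120 hpi 3, 2 and 3 genes fell with WT, R35A and R35K, among them Trib3, an ATF4 target, which fell by 1.82, 1.37 and 2.08. The median at 120 hpi was -0.31 with WT, -0.31 with R35A and -0.26 with R35K, against -0.36, -0.31 and -0.28 over all genes. Of all genes, 20%, 37.3% and 32.9% were called at 1 hpi and 63.4%, 63.2% and 63.9% at 120 hpi.

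Myeloid genes known as C/EBP targets moved both ways within 1 hour. Of 10 tested with WT and R35A, 4 rose and 4 fell with WT and 6 rose and 4 fell with R35A at 1 hpi, and of 9 tested with R35K 6 rose and 3 fell. The medians were 0.15, 1.08 and 2.20, where 20%, 37.3% and 32.9% of all genes were called. Mpo and Prtn3, granulocyte protein genes, were among those that fell with each construct, and the granulocyte markers, of which Mpo is one, fell in sum from at least 37.6 to at most 3.91 CPM. Lyz2, encoding lysozyme, rose by 4.09 with WT, 6.36 with R35A and 7.28 with R35K at 1 hpi, and Csf1r, the CSF-1 receptor gene, by 3.91, 6.47 and 7.15. Csf3r, the G-CSF receptor gene, fell by 1.26 with WT, at low counts (15 and 13 at 0 hpi, 7 and 6 at 1 hpi). It rose by 2.86 with R35A and 3.02 with R35K, and at 120 hpi it rose by 7.26, 6.89 and 6.99.

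Most inflammatory genes known as C/EBPβ and C/EBPδ targets rose. Of 8 tested at 1 hpi, 6 rose with WT, 7 with R35A and 7 with R35K, with none falling. Their medians were 2.23, 3.72 and 3.60, where 20%, 37.3% and 32.9% of all genes were called. By the test of the difference, 5 rose more with R35A than with WT and 6 more with R35K. That test called 14.1% and 12% of all genes. Hp, Saa3 and Tnf, encoding haptoglobin, a serum amyloid A and tumour necrosis factor, rose by 4.03, 3.24 and 1.38 with WT and by 6.75, 5.21 and 3.30 with R35A. At 120 hpi 7 rose with each construct, and 1 fell with WT. The medians there were 4.86, 5.54 and 5.46, where 63.4%, 63.2% and 63.9% of all genes were called.

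Granule genes known as C/EBPε targets split. Of 7 tested at 1 hpi, 1 rose and 5 fell with WT, 3 rose and 4 fell with R35A, and 3 rose and 4 fell with R35K. Their medians were -4.12, -2.50 and -2.23, where 20%, 37.3% and 32.9% of all genes were called. Mmp8, a neutrophil collagenase gene, rose by 5.42 with WT, 8.50 with R35A and 6.40 with R35K, and Mmp9 by 0.93 with R35A and 1.07 with R35K, with -0.38 in WT. Lcn2 fell by 0.84 with WT and rose by 0.90 with R35A. The summed granulocyte markers, of which Ltf and Camp are also on this list, went from at least 37.6 CPM at 0 hpi to at most 3.91 at 1 hpi.

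The ATF4 and CHOP stress genes moved both ways. Of 14 tested at 1 hpi, 3 rose and 1 fell with WT, 4 rose and 2 fell with R35A, and 3 rose and 2 fell with R35K. Their medians were 0.10, 0.15 and -0.08, where 20%, 37.3% and 32.9% of all genes were called. At 120 hpi 5 rose and 6 fell with WT, and 5 rose and 7 fell with each mutant, where 63.4%, 63.2% and 63.9% of all genes were called. The medians there were -0.21 with WT, -0.45 with R35A and -0.22 with R35K, against -0.36, -0.31 and -0.28 over all genes. Atf3, which is also on this list, rose with each construct at 120 hpi. Asns, which makes asparagine and is an ATF4 target, fell by 1.13, 0.87 and 1.18 at 120 hpi. Atf4 itself fell by 0.59 with R35A and 0.62 with R35K, with -0.28 in WT. Both falls were close to the 1.5-fold threshold. DESeq2's size factors raised the median change of all genes at 120 hpi by 0.129 with R35A and 0.136 with R35K. Whether Atf4 stayed called with those factors was not tested. Herpud1, of the endoplasmic reticulum stress response, fell by 1.17 with R35A and 0.94 with R35K at 1 hpi, with 0.30 in WT, and Nupr1 rose by 0.91 with WT and 1.83 with R35A.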

How the data were processed

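The authors sequenced stranded polyadenylated RNA libraries as 50-base single reads, aligned them to mm10 with STAR 2.5.0a, which also counted reads per gene, and normalized with DESeq2 1.14.1, per the paper's methods and the submitters' processing notes. The annotation release and the strand column are not given in the sources used here. The deposited counts are whole numbers, not normalized. The deposited log2 values were recovered from them in 100% of cases, as log2 of count over size factor plus 1, and were used only for this check.

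Counts were tested with edgeR 4.0.16 (quasi-likelihood, TMM, filterByExpr, Benjamini-Hochberg adjustment over all genes) in R 4.3.3. WT and R35A were fitted together (24 libraries, 16988 genes), R35K alone (12 libraries, 16434 genes), and R35K minus WT over all 36 libraries (17277 genes). CPM values use TMM over the 36 libraries. The biological coefficient of variation was 3.17%, 3.49% and 3.27%, and sources beyond "biological replicates" are not stated, so p-values measure only the spread between these libraries. Exon lengths and positions are from GENCODE vM21, in which 39171 of the 40354 symbols were found. Promoters were found in RefSeq's table for Cebpa, Cebpb, Cebpg and Ddit3.

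The fits were checked on simulated data. Alternatives were DESeq2 1.42.0 and its size factors, no filter, a 2-fold threshold, unadjusted p, a replicate block, 1 joint fit and leaving out each library. All 6 members were named, and of other lists the up to 3 genes with the largest called difference between R35A and WT at 1 hpi plus 7 preset genes. Members and lists were chosen with earlier results of these data known.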

Additional observations from a re-analysis of the deposited data

Results flagged for a closer look

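The changes of 3 members differed between constructs by the test of the difference itself, on the log2 scale and relative to WT. Cebpb differed by 0.70 with R35A at 3 hpi and by -0.66 at 120 hpi, and with R35K by 0.90, 0.99 and 0.86 at 1, 3 and 6 hpi and by -0.76 at 120 hpi. The sign of the Cebpb difference was thus opposite early and late with both mutants, and the changes of Tmem189 on the opposite strand ran in the same order over the constructs at 1 and 120 hpi. Cebpa differed by -0.83 with R35A at 1 hpi and by 1.27 with R35K at 18 hpi, and Esr1, whose row may hold construct reads, differed by -1.54 with R35A at 1 hpi. Cebpd differed by 0.66 with R35K at 1 hpi. Groups of 2 libraries allow no test for a single outlying library.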

How the results depend on the processing

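Of 117 member changes, steps and differences, 78 were called. All 78 kept their direction under every alternative run, and 77 stayed called with DESeq2's size factors, with DESeq2 itself and with no low-count filter, whereas 42 stayed called at 2-fold. Refits that leave out 1 library kept 1586 such calls and ended 34. The DESeq2 size factors moved the median of all genes by 0.158 with WT and 0.129 with R35A at 120 hpi, and leaving out a library of neither group moved 120 hpi values of members by up to 0.13. The change of Cebpa with WT at 18 hpi, -0.08, turned to 0.0363 with the size factors and 0.0366 with DESeq2, and was 0.0079 without WT replicate 1 and -0.1625 without WT replicate 2 of 0 hpi. Another 68 values, under 0.3 in size, were called in 0 alternatives, and 26 of them changed sign in at least 1.

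At 2-fold, the members called fell to 3 at 120 hpi with R35A and with R35K, to 2 in the step from 18 to 120 hpi with WT and 1 with each mutant, and to 0 for the direct comparison at each time after 0 hpi, the R35A differences at 1, 3 and 120 hpi and the R35K differences at 1, 3, 6 and 120 hpi. For the R35A difference, size factors and DESeq2 each called 2 members at 1 hpi, no filter called 2 at 18 hpi and 3 at 120 hpi, and unadjusted p called 1 at 18 hpi. Leaving out 1 library gave 1 to 2 members for the R35A difference at 1 hpi, 0 to 2 at 3 hpi, 0 to 1 at 18 hpi and 0 to 3 at 120 hpi, and 1 to 2, 0 to 1 and 0 to 1 for the R35K difference at 1, 6 and 120 hpi, and 1 to 2 for the direct comparison at 6, 18 and 120 hpi. The cause was not tested.

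Replicate numbers did not pair the libraries: over 153 pairs of same-numbered libraries the median correlation of their deviations was -0.007, and 17 exceeded 0.1. With the replicate block all 78 calls remained, with 3 members called with WT at 1 hpi. Depth limits Cebpe alone among the members.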
